A study of Mus musculus with 4 samples.

Results

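The kinesin and cytoplasmic dynein transport genes were examined in sympathetic ganglia (SG) of thoracic levels T1 to T4, which hold the neurons that innervate brown fat. The genes are those of the mouse RefSeq table whose symbol starts with Kif or Klc and a digit, or with Dync or Dynl, plus Dctn1 to Dctn6. Of 68 such symbols, 61 were listed in at least 1 of the 4 deposited tables, out of 17667 genes listed in all, and 56 were listed in all 4 tables, out of 15275. The 7 symbols without an entry were Kif12, Kif28, Kif2b, the long noncoding RNA Kif16bos and the pseudogenes Kif22-ps, Kif4-ps and Dynlt1-ps1.

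RNA-seq was performed in 4 libraries, each pooled from the ganglia of several mice. All mice were 12-week-old C57BL/6 animals kept at 5 °C for 1 day, so every library is from cold-exposed ganglia and none from warm ones. A pair of libraries came from wild-type (WT) mice. The third was labelled as coming from TRKC+/- mice, a line with 1 functional copy of the gene for TRKC, the receptor of neurotrophin 3 (NT-3), in the whole body. The fourth came from AdNTF3-Tg mice, in which the adiponectin promoter drives NT-3 in adipocytes, so that the transgene is not aimed at the ganglion itself. The labels do not say which WT library belongs to which mutant, and each mutant library was therefore compared with both WT libraries. With 1 library per mutant there is no replicate check of either mutant.

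Kinesins and cytoplasmic dynein are motor proteins that walk along microtubules using ATP. In axons, where microtubule plus ends point away from the cell body, most kinesins carry cargo outwards towards the terminals. Cytoplasmic dynein, with its cofactor dynactin, carries cargo back to the cell body, including endosomes that hold activated neurotrophin receptors. A sympathetic neuron depends on both directions, since its terminals lie far from its cell body.

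The 4 Dynlt1 genes, which encode copies of a dynein light chain of the Tctex type, are shown first because most reads of their coding part cannot be assigned to 1 gene. They lie within 1 cluster on chromosome 17 (NCBIM37), with Dynlt1a at chr17:6310547-6317474 on the minus strand, Dynlt1b at chr17:6429221-6435441 on the plus strand, Dynlt1f at chr17:6600796-6607792 on the plus strand and Dynlt1c at chr17:6646959-6655064 on the minus strand. Over 342 coding bases the copies Dynlt1a, Dynlt1c and Dynlt1f were identical in the GENCODE transcripts, and Dynlt1b differed from them by 1 base (99.7% identity). The first 120 coding bases of both versions are given 5′ to 3′ on the coding strand, with the differing base in capitals.
Dynlt1a: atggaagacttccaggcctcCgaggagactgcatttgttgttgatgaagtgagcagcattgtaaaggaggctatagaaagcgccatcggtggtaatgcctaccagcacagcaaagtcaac
Dynlt1b: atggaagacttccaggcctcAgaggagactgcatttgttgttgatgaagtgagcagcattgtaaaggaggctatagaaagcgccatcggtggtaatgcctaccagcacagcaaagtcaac
All 293 stretches of 50 bases (the length of the reads) in the coding part of Dynlt1a, Dynlt1c and Dynlt1f also occur in another copy, as do 272 of the 293 (92.8%) of Dynlt1b. The untranslated parts, which are long in Dynlt1a (a listed length of 4978 bases), were not compared. The values of the single copies are thus uncertain, and their sum is given beside them.

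The libraries held between 8665955 and 8894985 reads on genes. A count of 3 reads, the limit that an observed 0 allows, corresponds to 0.337 to 0.346 CPM (counts scaled to the library total). FPKM (fragments scaled to transcript length and to sequencing depth) is used for levels, since it can be compared between genes. All 16 markers of sympathetic neurons were listed in all 4 tables, with a summed level between 15067 FPKM in the AdNTF3-Tg library and 16054 FPKM in the library labelled TRKC+/-. Other cells were present too: the 6 satellite glia markers summed to between 1998 and 2315 FPKM and the 5 Schwann cell markers to between 540 and 575 FPKM. The 5 brown fat markers summed to 366 FPKM in WT library 1, 332 FPKM in WT library 2, 199.5 FPKM in that labelled TRKC+/- and 269 FPKM in AdNTF3-Tg. Ucp1, the defining one, had 655, 672, 110 and 525 reads in that order, so that the library labelled TRKC+/- stood apart in this gene. Fabp4 was also lowest there, with 1260, 1149, 701 and 879 reads. Cidea had 525, 447, 423 and 437 reads, Plin1 98, 94, 85 and 100 and Adipoq 144, 78, 94 and 71. The brown fat markers thus did not move together. In pooled tissue RNA, fewer cells of a type and less RNA per cell cannot be told apart. WT library 2 stood apart in the 8 skeletal muscle markers, with 3.34 FPKM in sum against 94.0 FPKM in WT library 1, 44.0 FPKM in that labelled TRKC+/- and 33.4 FPKM in AdNTF3-Tg. The reads of Ntrk3, which encodes TRKC, numbered 78 in WT library 1, 83 in WT library 2, 91 in that labelled TRKC+/- and 76 in AdNTF3-Tg. The targeted gene was therefore not lower in the library labelled TRKC+/-. The reads are summed over the whole gene, and how many come from the part that the mutant allele lacks is not known, so that this count checks the label only in part. Ntf3, the gene of NT-3, was listed with 2 reads in the library labelled TRKC+/- and in no other table.

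Transport genes made up a similar part of the ganglion transcriptome in all 4 libraries. They held 0.804% of all FPKM in WT library 1, 0.823% in WT library 2, 0.824% in that labelled TRKC+/- and 0.863% in AdNTF3-Tg. Of the 61 listed, 27 had a mean over the 4 libraries of at least 20 FPKM, and these are the motors and adaptors described one by one. Their coefficient of variation over the 4 libraries ran from 1.32% for Dync1li2 to 13.5% for Dynlt1c. A further 14 had a mean under 1 FPKM.

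**Figure D1:**
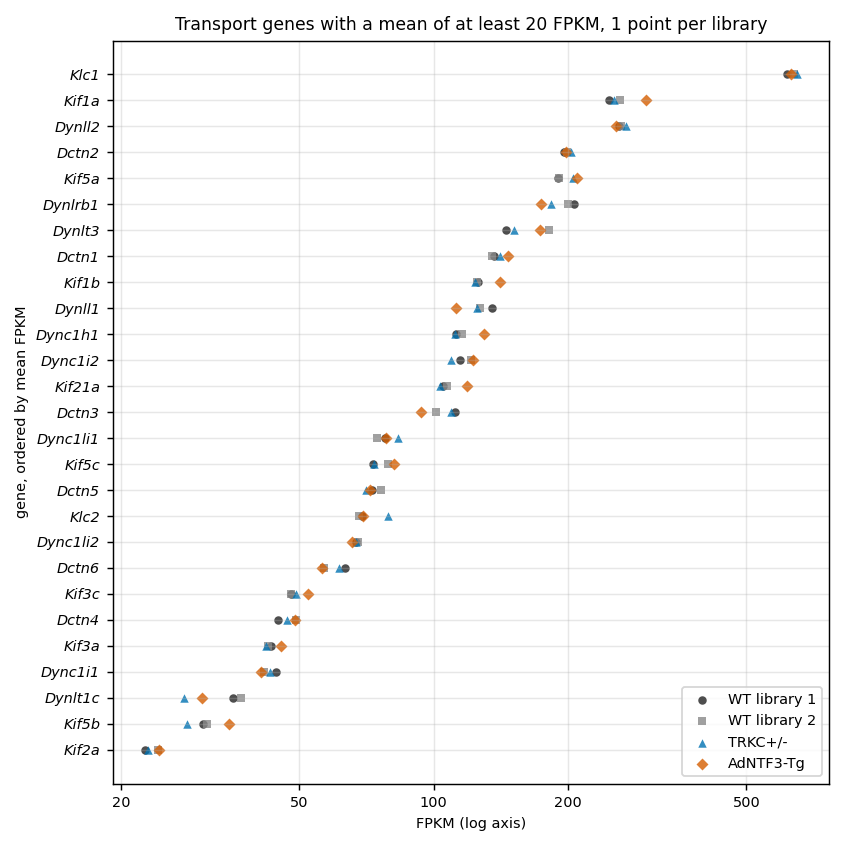
FPKM (log axis) of the 27 transport genes whose mean reached 20 FPKM, ordered by mean, with 1 point per library. The 4 points of Klc1 lie between 617 and 648 FPKM at the top, and those of Kif2a between 22.7 and 24.3 FPKM at the bottom, while for most genes the libraries differ far less than the genes do.

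Kinesin-1, the main motor for fast outward transport of vesicles and mitochondria, was carried by a neuronal set of subunits. Klc1, the light chain that binds cargo, had the highest mean level of all transport genes and ranked 53 among all 17667 genes. Its level was 617 FPKM in WT library 1, 639 FPKM in WT library 2, 648 FPKM in that labelled TRKC+/- and 628 FPKM in AdNTF3-Tg. The other light chains were lower in every library, with Klc2 between 68.2 and 79.0 FPKM, Klc4 between 7.16 and 10.9 FPKM and Klc3 between 1.59 and 2.79 FPKM. Among the heavy chains, which hold the motor domain, the neuronal gene Kif5a made up 63.4% to 66.8% of the summed FPKM of the family. Kif5c, also neuronal, made up 24.0% to 26.2%. Kif5b, the heavy chain used by most cell types, made up 9.19% to 10.7%.

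Kinesin-3 motors carry synaptic vesicle precursors and dense-core vesicles along axons. Kif1a was the motor with the highest level, at 247 FPKM in WT library 1, 261 FPKM in WT library 2, 253 FPKM in that labelled TRKC+/- and 299 FPKM in AdNTF3-Tg. Kif1b, whose products carry mitochondria and synaptic vesicle precursors, had between 124 and 141 FPKM, and the broadly used Kif1c between 10.6 and 12.0 FPKM. The remaining kinesin-3 genes Kif13a, Kif13b and Kif16b had means between 2.81 and 8.66 FPKM. Among the kinesin-4 genes, Kif21a held at least 99.1% of the summed FPKM of the Kif21 pair in every library, at 103 to 118 FPKM.

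Kinesin-2 carries vesicles in axons and drives transport within cilia. Kif3a, Kif3b and Kif3c encode motor subunits that act in pairs, Kif3a with either of the others. Kif3c made up 42.5% to 44.2% of the kinesin-2 FPKM, Kif3a 38.1% to 38.3% and Kif3b 16.7% to 17.7%, so that the summed level of both partners exceeded that of Kif3a in each library. Kif17, the kinesin-2 that forms a homodimer, made up 0.930% to 1.58%. Kif2a, a kinesin-13 that shortens microtubules rather than walking along them, had between 22.7 and 24.3 FPKM.

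The dynein complex was represented by 1 heavy chain gene and by pairs of smaller subunits. Dync1h1, the motor subunit, had 112 FPKM in WT library 1, 116 FPKM in WT library 2, 112 FPKM in that labelled TRKC+/- and 129.8 FPKM in AdNTF3-Tg. Of the intermediate chains, which bind dynactin, Dync1i2 made up 71.7% to 74.8% and Dync1i1, the form known from neurons, the rest. The light intermediate chains, which bind cargo adaptors, were closer to each other, with Dync1li1 at 52.4% to 55.3% of the sum. Among the light chains, Dynll2 had a level of 255 to 269 FPKM and its relative Dynll1 of 112 to 135 FPKM. Dynlrb1 had 174 to 206 FPKM and its relative Dynlrb2 was listed with at most 0.49 FPKM, in 2 of the 4 tables.

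Dynactin genes showed mean levels between 47.6 and 199 FPKM. Dctn1, the large subunit that holds on to microtubules and dynein, had 135 to 146 FPKM, and Dctn2, which joins the shoulder of the complex to its filament, had 196 to 203 FPKM. Dctn3 had 94.0 to 111 FPKM, and Dctn4, Dctn5 and Dctn6, of the pointed end, had means of 47.6, 73.0 and 59.6 FPKM. Dynein-2, the motor of cilia, was lower, with means of 15.7 FPKM for Dync2li1 and 1.48 FPKM for Dync2h1.

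**Figure D2:**
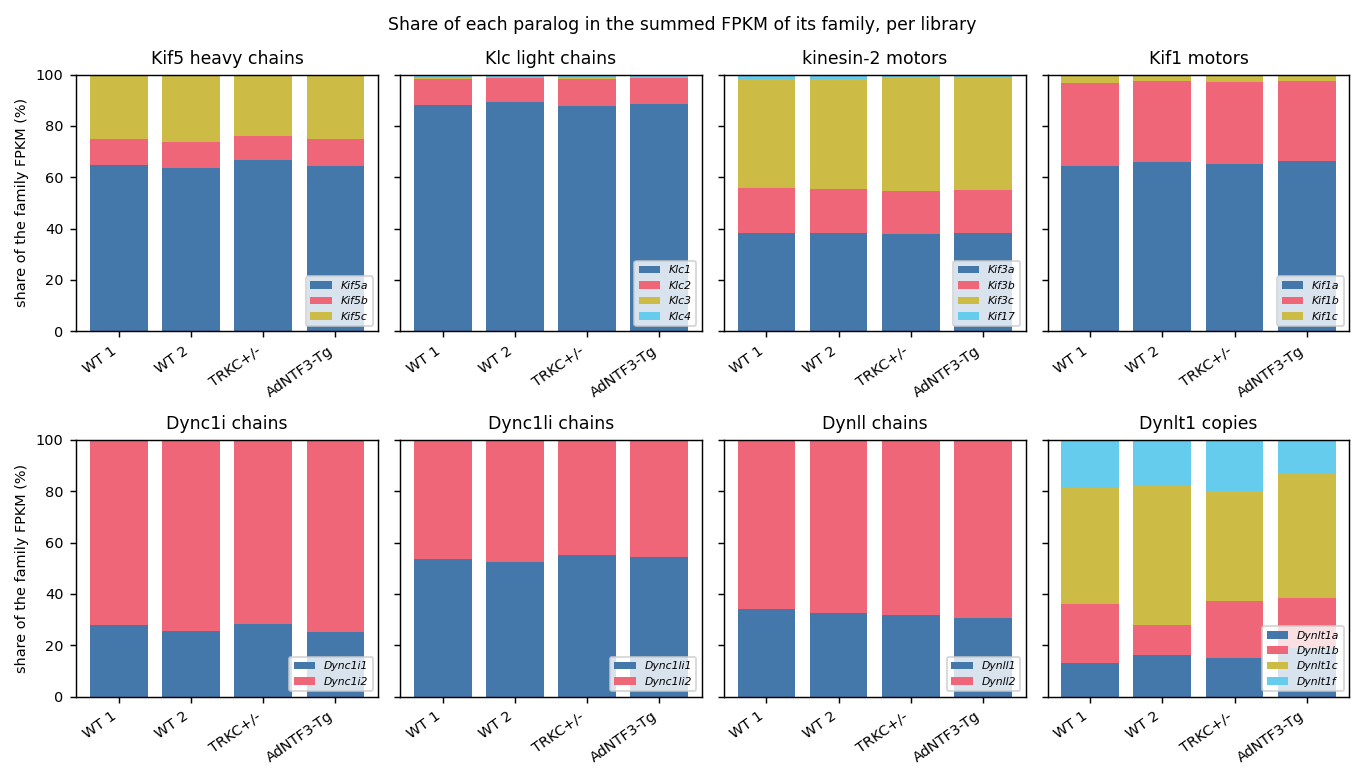
Stacked bars of the share (%) of each paralog in the summed FPKM of its family, 1 bar per library, for 8 families. The bars of the first 7 families are nearly level between libraries (Kif5a 63.4% to 66.8%, Klc1 87.6% to 89.2%), while the Dynlt1 copies, whose reads are shared, vary most in the plot (Dynlt1b 11.8% to 23.0%).

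The first comparison sets the library labelled TRKC+/-, in which the reads of Ntrk3 were not lower than in WT, against both WT libraries. Against both WT libraries, 0 of 56 transport genes were higher by at least 0.5 on the log2 scale of FPKM plus 0.1 in the library labelled TRKC+/- (all genes 1.78%), and 1 was lower (all genes 2.49%). That gene was Kif17, given in full further on. Of the 27 genes with at least 20 FPKM, 0 passed this cutoff, as against 0.0484% of 4130 such genes higher and 0.121% lower. The median log2 ratio to the mean of both WT libraries was -0.02 over the 56 genes and 0.00 over all genes listed in the 4 tables. It was -0.0045 without WT library 1 and -0.0094 with FPKM rescaled to the same sum.

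Smaller differences were read from the exact 95% interval that read counting alone allows for each pair of libraries. By this measure 2 of the 27 genes were above both WT libraries (all genes 4.53%) and 2 were below both (all genes 4.46%). By FPKM alone, 8 of the 27 were above both WT libraries (all genes 31.8%) and 10 were below both (all genes 31.9%). Klc2 had 69.1 FPKM in WT library 1, 68.2 FPKM in WT library 2 and 79.0 FPKM in the library labelled TRKC+/-, which was 14.3% and 15.8% higher. Kif5a had 189 and 191 FPKM in the WT libraries and 204 FPKM in the library labelled TRKC+/-, which was 7.99% and 7.20% higher. On the other side, Kif5b had 30.5 and 31.1 FPKM in the WT libraries and 28.1 FPKM in the library labelled TRKC+/-. Dynlt1c had 35.6, 37.1 and 27.7 FPKM in the same order, but its reads are shared with the other copies. The sum of the 4 Dynlt1 copies was 79.2 FPKM in WT library 1, 68.3 FPKM in WT library 2 and 64.4 FPKM in the library labelled TRKC+/-, a log2 ratio of -0.30 and -0.09.

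These intervals cover counting error only, and the pair of WT libraries shows how much they leave out. For 8 of the 27 transport genes the interval between both WT libraries left out 0 as well (all genes of that level 32.6%). Without WT library 1 the count of transport genes below WT was 8 instead of 2 (all genes 15.4%), and without WT library 2 it was 4 (all genes 13.6%). The count above WT was 4 in each case (all genes 15.9% and 11.5%). With a trend on gene length removed, Kif5a and Klc2 were above WT (all genes 4.02%) and Kif5b alone was below (all genes 4.04%). Past the cutoff of 0.5 there were 6 of 56 genes in either direction without WT library 1 (all genes 12.7%) and 5 without WT library 2 (all genes 10.7%), in place of 1.

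The second comparison sets the library of AdNTF3-Tg mice, whose adipocytes carry the NT-3 transgene, against the same WT libraries. In the AdNTF3-Tg library 1 of 56 transport genes was at least 0.5 higher than both WT libraries (all genes 2.12%) and 3 were lower (all genes 3.58%). None of them was among the 27 genes with at least 20 FPKM, where the share of all genes was 0.0242% higher and 0.242% lower. The median log2 ratio to the mean of both WT libraries was 0.04 over the 56 transport genes and 0.00 over all genes. It was 0.02 without either one of the WT libraries and 0.09 with FPKM rescaled to the same sum.

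Below that cutoff, many of the large motor subunits had more reads in the AdNTF3-Tg library than in either WT library. Counting intervals lay above 0 against both WT libraries for 8 of the 27 genes (all genes 7.17%), namely Kif1a, Kif1b, Kif5a, Kif5b, Kif3c, Kif21a, Dync1h1 and Dctn1. Counting intervals lay below 0 for 2 of the 27, Dynll1 and Dynlrb1 (all genes 13.4%). By FPKM alone, 14 of the 27 were above both WT libraries (all genes 28.8%) and 9 were below both (all genes 42.4%). Without WT library 2 the count below 0 was 4, with Dctn3 and Dctn6 added (all genes 27.6%), the count above 0 was 12 (all genes 17%), and 8 genes passed the cutoff of 0.5 in either direction (all genes 13.9%) in place of 4. Without WT library 1 the genes past that cutoff numbered 6 (all genes 13.3%), with 9 intervals above 0 (all genes 12.8%) and 2 below (all genes 19.2%).

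Kif1a differed most among the 8. It had 17592 reads in WT library 1, 18921 in WT library 2 and 21533 in AdNTF3-Tg, and its FPKM was 20.9% and 14.4% higher than in the WT libraries. The log2 ratio was 0.27 against WT library 1 (95% counting interval 0.24 to 0.30) and 0.19 against WT library 2 (0.17 to 0.22), while the WT libraries were 0.08 apart. Dync1h1 had 13974 and 14694 reads in the WT libraries and 16409 in AdNTF3-Tg, with log2 ratios of 0.21 and 0.17. Kif1a is annotated at chr1:94912033-94998442 and Dync1h1 at chr12:111839662-111905155 (NCBIM37), both protein-coding loci.

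The kinesin-1 heavy chains were all above both WT libraries in the AdNTF3-Tg library. Kif5a had 189 and 191 FPKM in the WT libraries and 209 FPKM in AdNTF3-Tg. Kif5c had 73.0, 78.9 and 81.4 FPKM in the same order, although its interval against WT library 2 held 0. Kif5b had 30.5, 31.1 and 34.9 FPKM. The light chain Klc1 did not share this pattern, since its level in AdNTF3-Tg (628 FPKM) lay between those of the WT libraries. Its transcript is shorter, at 2409 bases against 6030 to 6867 bases for the heavy chains. With the trend on length described below removed, the log2 ratio to the mean of both WT libraries was 0.03 for Klc1 and 0.05 for Kif5a. Before removal these ratios were 0.00 and 0.14.

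Kif1b had 126 FPKM in WT library 1, 125 FPKM in WT library 2 and 141 FPKM in AdNTF3-Tg. Kif21a had 105, 107 and 118 FPKM and Kif3c had 48.1, 48.1 and 52.5 FPKM. Dctn1 had 137, 135 and 146 FPKM. In these 4 genes the WT libraries were at most 0.03 apart on the log2 scale, and the AdNTF3-Tg library was 0.10 to 0.17 above each.

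The light chains Dynlrb1 and Dynll1 stood on the other side. Dynlrb1 had 206 and 199 FPKM in the WT libraries, 183 FPKM in the library labelled TRKC+/- and 174 FPKM in AdNTF3-Tg. Dynll1 had 135, 127, 125 and 112 FPKM in the same order. The difference of AdNTF3-Tg from the mean of both WT libraries was -0.22 on the log2 scale for each of them. Dynll2, which encodes a close relative of the Dynll1 protein, had a log2 ratio of -0.03.

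**Figure D3:**
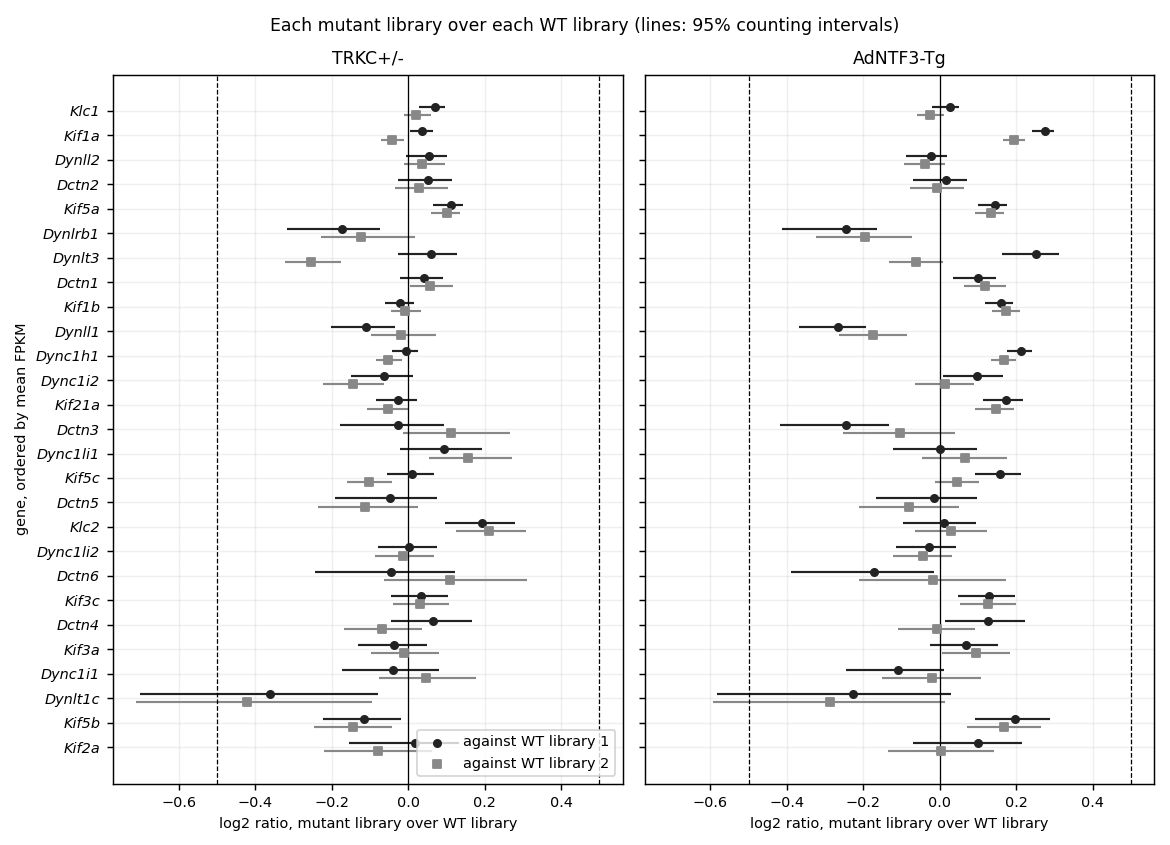
Log2 ratio of each mutant library over WT library 1 (circles) and WT library 2 (squares) for the 27 genes, from FPKM plus 0.1, with lines for the exact 95% counting interval from reads per library total and dashed lines at the cutoff of 0.5. No point lies beyond a dashed line in either panel, and in the AdNTF3-Tg panel both lines of Kif1a, Kif5a, Kif1b, Dync1h1, Kif21a, Kif3c, Kif5b and Dctn1 lie right of 0.

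Within the AdNTF3-Tg comparison, the log2 ratio followed the length of the transcript. Over the 27 transport genes, the ratio to the mean of both WT libraries and log2 length had a Pearson's r of 0.88 and a Spearman's rho of 0.88, given as a description because the genes share the same libraries. The same held for all 4130 genes with at least 20 FPKM, with r = 0.59 and rho = 0.61. The 8 transport genes longer than 6000 bases, all of them motor subunits, had a median of 0.16, and the 222 genes of that length overall had a median of 0.11. The 4 transport genes shorter than 1000 bases (Dynlrb1, Dynlt1c, Dctn3 and Dctn6) had a median of -0.20, and the 547 genes of that length overall had a median of -0.19.

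The relation was weaker between the other libraries. For the library labelled TRKC+/- the transport genes had r = 0.29 and rho = 0.09, and all genes r = 0.23 and rho = 0.24. These values depended on the WT library, with r = 0.42 for the transport genes and 0.35 for all genes against WT library 1, and 0.15 and 0.05 against WT library 2. For AdNTF3-Tg the transport genes had r = 0.81 against WT library 1 and 0.86 against WT library 2. For WT library 1 over WT library 2 the transport genes had r = -0.26 and all genes -0.23, so that libraries of 1 genotype also differed along length. The part of RNA quality in these relations was not tested, since no measure of it was at hand.

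With a quadratic trend on log2 length removed, a step chosen after seeing the data, the intervals of 3 of the 8 genes still lay above 0 against both WT libraries, as did those of 4.72% of all genes. These were Kif1a, Kif5a and Kif21a, with log2 ratios to the mean of both WT libraries of 0.12, 0.05 and 0.08 in place of 0.23, 0.14 and 0.16. Dync1h1, whose transcript of 14398 bases is the longest of the 27, moved from 0.19 to 0.02. Dynll1, which is 2037 bases long, stayed at -0.17 after -0.22, while Dynlrb1 at 702 bases moved from -0.22 to -0.01. Counting intervals below 0 against both WT libraries were then held by Dynll1 and Dync1li2, against 5.01% of all genes.

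**Figure D4:**
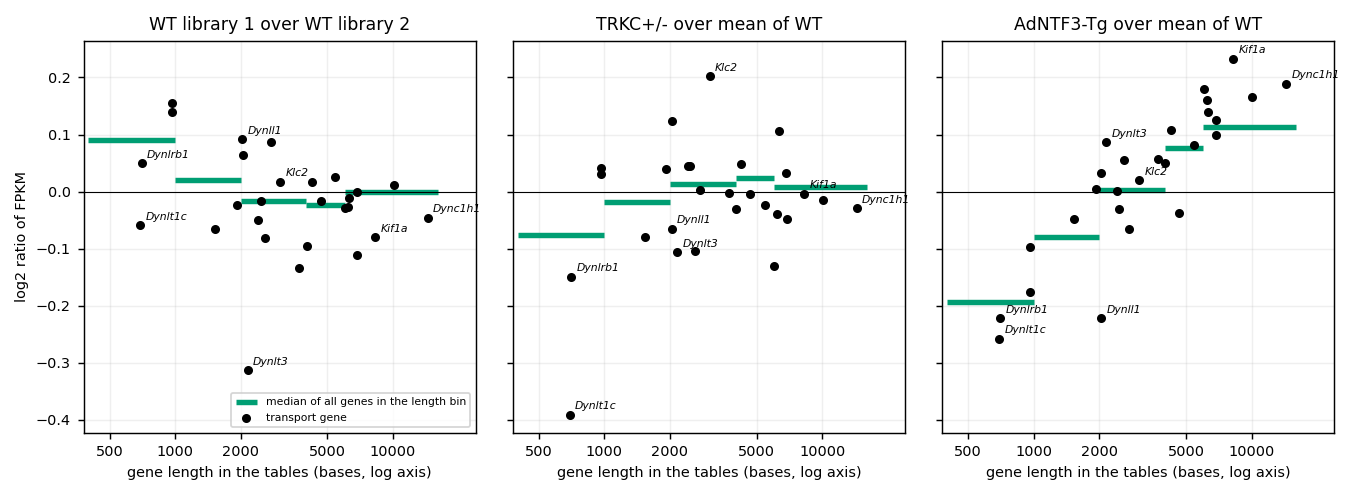
Log2 ratio of FPKM against transcript length (bases, log axis) for the 27 transport genes (black points) with the median of all genes of at least 20 FPKM in each length bin (green bars), in 3 comparisons of libraries. In the AdNTF3-Tg panel the bars climb from -0.19 below 1000 bases to 0.11 above 6000 bases and the points lie along them, with Dynll1 below its bar.

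The genes that did pass the cutoff of 0.5 against both WT libraries were sparsely expressed. Kif17, which maps to chr4:137806350-137857882 (NCBIM37), had 49 reads in WT library 1, 56 in WT library 2, 36 in that labelled TRKC+/- and 33 in AdNTF3-Tg. Both mutant libraries were thus below both WT libraries, with log2 ratios of -0.57 and -0.57 for the one labelled TRKC+/- and -0.61 and -0.62 for AdNTF3-Tg. The listed transcript length of Kif17 varied between libraries, from 3278 to 3652 bases, and by reads per library total the ratios for the library labelled TRKC+/- were -0.48 and -0.65. With TMM-scaled counts the gene did not pass the cutoff there. The counting interval against WT library 1 held 0 in each case (-1.14 to 0.17 and -1.28 to 0.07), and that against WT library 2 did not (-1.29 to -0.02 and -1.42 to -0.11).

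Kif19a, whose product limits the length of cilia, was the gene above both WT libraries in AdNTF3-Tg. It is annotated at chr11:114626702-114652053 (NCBIM37) and had 45 and 49 reads in the WT libraries, 43 in the library labelled TRKC+/- and 76 in AdNTF3-Tg. The log2 ratio of AdNTF3-Tg was 0.71 (0.18 to 1.30) against WT library 1 and 0.61 (0.10 to 1.19) against WT library 2. The 9 markers of ciliated cells summed to 8.65 FPKM in WT library 1, 9.80 FPKM in WT library 2, 10.8 FPKM in that labelled TRKC+/- and 10.8 FPKM in AdNTF3-Tg. Of these, 6 were listed in all 4 tables, and Tekt1, which had 1 read in WT library 1, was listed in no other. The part of ciliated cells in the level of Kif19a was not tested.

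Dynlt1f had 98.4 and 80.8 expected reads in the WT libraries, 86.1 in the library labelled TRKC+/- and 55.7 in AdNTF3-Tg, a log2 ratio of -0.80 and -0.52. Since its coding part cannot be told from that of Dynlt1a and Dynlt1c, the summed reads of the 4 copies are given as well. They were 861 in WT library 1, 813 in WT library 2, 758 in that labelled TRKC+/- and 813 in AdNTF3-Tg, so that by reads the sum in AdNTF3-Tg did not lie below WT library 2. Dynlt1a, whose long untranslated parts were not compared, held 447, 476, 423 and 512 of these reads in the same order. By FPKM, which weighs the longer Dynlt1a less per read, the sum was 63.1 in AdNTF3-Tg against 79.2 and 68.3 in the WT libraries. The fourth gene past the cutoff, Kif4, a mitotic motor, had 5 reads in each WT library, 7 in that labelled TRKC+/- and 2 in AdNTF3-Tg. Its counting interval ran from -4.74 to 1.27 against WT library 1, so that no difference was detectable at this depth.

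Kif26b, a kinesin without motor activity, did not reach the cutoff against either WT library but had intervals above 0 against both. Its reads were 352 and 400 in the WT libraries, 417 in the library labelled TRKC+/- and 499 in AdNTF3-Tg, with log2 ratios of 0.48 and 0.32 for AdNTF3-Tg.

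**Figure D5:**
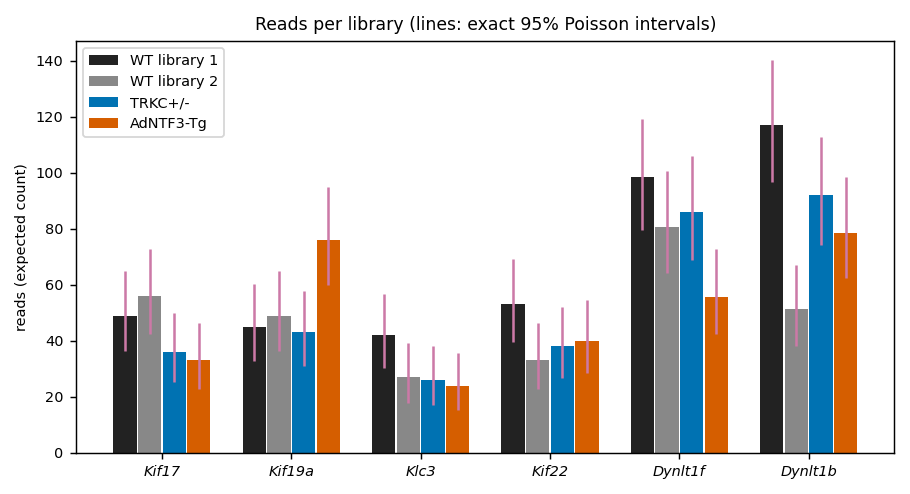
Reads (expected count) per library of 6 transport genes of low level, as bars from 0 with exact 95% Poisson intervals as lines. Kif17 is lower in both mutant libraries (36 and 33 reads) than in both WT libraries (49 and 56), Kif19a is higher in AdNTF3-Tg (76 reads), and Dynlt1b differs between the WT libraries (117 and 51.4).

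The WT libraries also differed from each other. At least 0.5 on the log2 scale separated them in 7 of 56 genes (all genes 13.4%), 5 higher in WT library 1 and 2 higher in WT library 2. Among genes averaging at least 1 FPKM there were 3 (all genes of that level 7.26%), all higher in WT library 1. Dynlt1b had 18.2 FPKM in WT library 1 and 8.03 FPKM in WT library 2, Kif22 had 53 and 33 reads and Klc3 had 2.79 and 1.78 FPKM. None of the 27 genes of at least 20 FPKM differed that much (all genes 1.02%). The dynein light chain Dynlt3 came closest, with 145 FPKM in WT library 1 and 181 FPKM in WT library 2, a log2 ratio of -0.31 (-0.37 to -0.23), and both mutant libraries lay between them at 152 and 173 FPKM.

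Kinesins of cell division had low levels, each with a mean of at most 2.30 FPKM, and so had the markers of dividing cells. Of 11 such kinesins, 8 were listed in all 4 tables. Kif22, which acts on chromosome arms, had 33 to 53 reads per library and Kif20a, which acts in cytokinesis, had 42 to 54. The spindle motor Kif11 had 9 to 16 expected reads, Kif23 had 5 to 11 and Kif15 had 2 to 6. The 10 markers of dividing cells summed to 3.84 FPKM in WT library 1, 5.07 FPKM in WT library 2, 4.96 FPKM in that labelled TRKC+/- and 4.73 FPKM in AdNTF3-Tg. Mki67, a defining marker, had 21, 20, 11 and 8 reads in that order, while Top2a had 12, 13, 16 and 24 and Plk1 had 11, 15, 11 and 23, so that the markers did not move together.

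Partners of the motors were read from a list of 44 genes, of which 42 were listed in all 4 tables. In the library labelled TRKC+/- 0 of 42 were at least 0.5 higher than both WT libraries (all genes 1.78%) and 1 was lower (all genes 2.49%), Spdl1, a dynein adaptor of dividing cells with a mean of 0.48 FPKM. In AdNTF3-Tg 0 of 42 were higher (all genes 2.12%) and 0 were lower (all genes 3.58%). Counts this small are near those shares. Kifap3, the adaptor that joins the kinesin-2 motors to cargo, had 63.8 and 69.2 FPKM in the WT libraries, 63.8 FPKM in the library labelled TRKC+/- and 66.6 FPKM in AdNTF3-Tg. Pafah1b1, the dynein regulator also known as LIS1, had 140.4, 143, 138 and 155 FPKM. Actr1a, which forms the dynactin filament, had 172, 174, 175 and 167 FPKM. Among the 15 kinesin partners with at least 20 FPKM, counting intervals lay above both WT libraries for 5 in AdNTF3-Tg (all genes 7.17%) and for 3 in the library labelled TRKC+/- (all genes 4.53%), and below for 0 in each (all genes 13.4% and 4.46%). Among the 10 dynein and dynactin partners of that level, 2 were above and 1 was below in AdNTF3-Tg, and 1 was above and 1 below in the library labelled TRKC+/-. These partner counts were made without removing the length trend, and its part in them was not tested. Clstn1, a vesicle protein that binds kinesin light chains, was in both counts of kinesin partners, with 142 and 138 FPKM in the WT libraries, 151 FPKM in the library labelled TRKC+/- and 164 FPKM in AdNTF3-Tg. Mapk8ip2 and Mapk8ip3, which encode scaffolds between kinesin-1 and its cargo, were in both counts too. Both comparisons use the same WT libraries, so a low WT value enters each of them.

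A test across all genes was possible only by assuming that each lone mutant library varies like the WT pair, which leaves 1 residual degree of freedom. The study describes the WT mice as the respective controls of each line, so the WT pair may hold a difference between cohorts as well as the spread within 1. With edgeR's quasi-likelihood test and Benjamini-Hochberg adjustment over 14156 genes, none of the 53 transport genes tested passed an adjusted p of 0.05 in either comparison. Over all genes the test called 1 gene in the library labelled TRKC+/- (0.00706%) and 0 genes (0%) in AdNTF3-Tg, and DESeq2 called 2 and 0 genes, with no transport gene among them. At an unadjusted p under 0.05, edgeR listed 1 transport gene, Klc2, in the library labelled TRKC+/- (all genes 1.93%) and 10 in AdNTF3-Tg (all genes 5.88%). DESeq2 listed 0 (all genes 0.119%) and 1 (all genes 0.363%) in the same order, so it listed fewer genes of any kind. Of the 10 from edgeR, Kif1a, Kif1b, Kif5a, Kif21a, Dync1h1, Kif19a and Kif26b were higher and Dynll1, Dynlrb1 and Dynlt1f were lower. In edgeR's test Kif1a had an unadjusted p of 0.0038 and an adjusted p of 0.82 at a log2 fold change of 0.24, and Dync1h1 an unadjusted p of 0.0094 and an adjusted p of 0.82 at 0.19.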

How the data were processed

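SG libraries of oligo(dT)-selected mRNA were sequenced as single-end reads of 50 bases. The study's methods name SOAPnuke (v1.5.2), HISAT2 (v2.0.4), mm9 and RPKM, whereas the submitters' processing notes name RSEM and mm10. Strand use is not given in the sources used here. The authors deposited, per library and Entrez gene, a transcript length, an expected count of reads and an FPKM value. Reads that fit several genes are divided between them, and 92.6% to 93.7% of the expected counts were whole as written, with no tolerance. Genes without reads are not listed. Symbols came from RefSeq (GRCm38.p6; 17619 of 17667 identifiers, 99.7%), coordinates and transcripts from GENCODE vM1 on NCBIM37 (mm9).

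Log2 ratios used FPKM plus 0.1, over genes listed in all 4 tables, with a cutoff of 0.5 against both WT libraries. Exact Clopper-Pearson 95% intervals used rounded expected counts and library totals. Like the limit of 3 reads, they hold only counting error, since PCR reads are not independent molecules. edgeR (v4.0.16, TMM, low-count filter) and DESeq2 (v1.42.0) fitted the rounded counts in R (v4.3.3), with WT as 1 group. The WT libraries may be controls of different lines, and the labels do not tell them apart, so p-values measure only the spread between these samples. The fold calls, the counting intervals and the edgeR fit were tested on simulated data. Values were named for genes averaging at least 20 FPKM, genes past the cutoff in a mutant, genes past it between the WT libraries at 1 FPKM or more, and partner genes past it; others were chosen after their values were seen. Members and lists were chosen with earlier results of these data known.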

Additional observations from a re-analysis of the deposited data

How the results depend on the processing

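No paired analysis was possible because each mutant has 1 library and shares fewer than 2 replicate numbers with WT. Counts of transport genes past the cutoff against both WT libraries were 1 for the library labelled TRKC+/- and 4 for AdNTF3-Tg. They became 0 and 0 with a pseudocount of 1 FPKM, 0 and 0 with a cutoff of 1, and 0 and 2 where counting intervals also had to leave out 0. For the library labelled TRKC+/- the count was 0 with TMM-scaled counts and 2 with unlisted genes taken as 0. Leaving out 1 WT library gave 5 to 6 genes for that library and 6 to 8 for AdNTF3-Tg. The 7 genes apart between the WT libraries became 1 with a pseudocount of 1 FPKM or a cutoff of 1, and 3 with a mean of at least 1 FPKM.

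Without 1 WT library, counting intervals placed 4 genes above WT and 4 to 8 below in the library labelled TRKC+/- (all genes 11.5% to 15.9% above and 13.6% to 15.4% below), and 9 to 12 above and 2 to 4 below in AdNTF3-Tg (all genes 12.8% to 17% above and 19.2% to 27.6% below). With the length trend removed, an alternative added after seeing the data, 1 gene was below WT in the library labelled TRKC+/- (all genes 4.04%) and 3 were above in AdNTF3-Tg (all genes 4.72%). Over all genes, edgeR called 1 gene for the library labelled TRKC+/-, 2 with RLE size factors and 0 without the filter on low counts, and DESeq2 called 2. Among 34 named genes in both mutants (68 values), removing the length trend moved 32 ratios to the WT mean by more than the spread of the WT pair, rescaling FPKM to the same sum moved 30, and TMM-scaled counts moved 7. No gene past the cutoff changed direction. Depth limits the sparse genes such as Kif17, Kif19a and Kif4, whose counting intervals are wider than the cutoff. The cause of these changes was not tested.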
